A study of Mus musculus with 29 samples.

Results

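Forebrain from mouse embryos carrying the hs267-853 knockout was compared with wild-type forebrain at E11.5, across all genes, in 4 RNA-seq libraries out of the 29 samples of the series. The 4 libraries were chosen by their labels, which give 2 knockout and 2 wild-type forebrain replicates. Each replicate was a pool of dissected tissue from several embryos of 1 genotype, and poly(A) RNA was sequenced. No source used here says whether the pools came from separate litters, so the p-values measure only the spread between these libraries, which may be technical. Names that begin with hs belong to the VISTA catalogue, in which human sequences were tested for enhancer activity in transgenic mouse embryos. The genotype label joins 2 numbers, and it was not established whether 1 or 2 elements were deleted. The strain and the sex of the embryos are not given in the sources used here. The 4 other RNA-seq libraries, midbrain of hs654 knockout and of wild-type embryos of the same age, entered the model for the estimate of spread, and the capture Hi-C libraries, 21 in number, were not analysed here.

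An enhancer is a stretch of DNA that raises transcription of a gene on the same chromosome, often across a long distance and in a limited set of cells. At this stage the forebrain wall is a sheet of dividing neural progenitors with a first layer of neurons, divided into pallium, subpallium, hypothalamus and diencephalon by transcription factors. A dissected forebrain also carries the tissues around the wall, which are cranial mesenchyme, blood vessels, blood and the surface ectoderm of the head.

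The deposited tables listed 25239 genes, and 15383 had enough counts to be tested. Counts in genes summed to 14872668 and 13026016 in wild-type replicates 1 and 2, and to 18024406 and 15311926 in knockout replicates 1 and 2. Levels are given as CPM, counts scaled to the size of the library, and 3 counts, the limit a count of 0 allows, equal 0.170 to 0.232 CPM. This limit covers counting error only. The tissue label was met: Dlx2, a homeodomain factor of the ventral forebrain, measured 70.7 and 55.0 CPM in the wild-type pair and 81.3 and 51.6 CPM in knockout libraries, against a mean of 4.98 CPM in wild-type midbrain. None of 18 Hox genes, which mark hindbrain and spinal cord, had enough counts to be tested (0 of 18). Knockout replicate 1 stood apart from the other 3 libraries. It scored 34.2 on the first principal component of the 4 libraries, which held 42.6% of their variance, and the others scored -19.0 to -6.08. Results are therefore given with and without it where it changes them. Wild-type replicate 1 held 0.00 CPM over 4 Y-linked genes and the other 3 libraries 62.5 to 141 CPM. These 4 genes are among those higher in the knockout at an unadjusted p under 0.05. Over 2 genes of X inactivation, the sums were 3216 and 2523 CPM in the wild-type pair and 1961 and 1443 CPM in knockout libraries. An unequal mix of sexes in the pools cannot be told apart from genotype here.

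In the knockout, 1 gene fell and 1 gene rose by edgeR's quasi-likelihood test, with a threshold of 0.05 on the p-value after Benjamini-Hochberg adjustment. These 2 of 15383 genes are 0.0130% of those tested. The gene that fell is C130071C03Rik, a long non-coding RNA that contains the microRNA gene Mir9-2. The gene that rose is Lhx1, a LIM-homeodomain transcription factor of early neurons and of the diencephalon. Both are annotated in RefSeq on GRCm38.p6, the build behind the mm10 coordinates that the submitters' processing notes name. C130071C03Rik lies at chr13:83721381-83741308 on the plus strand and Lhx1 at chr11:84517975-84525534 on the minus strand. miR-9 is a microRNA of neural progenitors and young neurons, and the mouse genome makes the same mature sequences from 3 genes. Its 2 mature forms, as RefSeq gives them for Mir9-2 within C130071C03Rik, are printed because the called transcript carries them. The capitals mark the seed, bases 2 to 8.
mmu-miR-9-5p: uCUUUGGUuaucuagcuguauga
mmu-miR-9-3p: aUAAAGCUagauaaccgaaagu
The 250 bases before the most upstream annotated start of each called gene are printed to show the promoters of the 2 genes that passed the test. The window of C130071C03Rik is chr13:83721131-83721380 on the plus strand, and that of Lhx1 is chr11:84525535-84525784 on the minus strand. Capitals mark a CCAAT motif, which appears as ATTGG where it lies on the reverse strand.
C130071C03Rik: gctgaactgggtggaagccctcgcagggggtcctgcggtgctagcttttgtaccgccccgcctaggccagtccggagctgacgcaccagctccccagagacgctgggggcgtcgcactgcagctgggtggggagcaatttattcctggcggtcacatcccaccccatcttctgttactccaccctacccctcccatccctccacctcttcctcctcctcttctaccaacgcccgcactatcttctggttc
Lhx1: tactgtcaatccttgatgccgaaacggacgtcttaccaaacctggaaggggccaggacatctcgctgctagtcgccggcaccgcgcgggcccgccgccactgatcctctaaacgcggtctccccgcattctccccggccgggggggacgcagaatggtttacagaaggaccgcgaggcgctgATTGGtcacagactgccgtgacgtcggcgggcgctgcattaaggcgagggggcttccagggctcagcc
Both windows are rich in G and C, at 62.8% for C130071C03Rik and 64.8% for Lhx1. Searched on both strands, the CCAAT motif was found 1 time in the Lhx1 window and 0 times in the printed window of C130071C03Rik. Of 32851 RefSeq windows of this length, 33.8% hold it. GGGCGG was found 1 time before C130071C03Rik and 0 times before Lhx1, and 32.7% of windows hold it. Neither window holds TATAAA, present in 12.4% of windows, or TAATTA, present in 4.84%. The windows before other annotated starts of C130071C03Rik, chr13:83727856-83728105 and chr13:83732243-83732492, are not printed. They are 40.4% and 53.2% G and C, and each holds the CCAAT motif 1 time. The start of Lhx1os, a non-coding gene of the other strand, falls within the Lhx1 window. These matches describe letters only.

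C130071C03Rik measured 284 and 296 CPM in wild-type replicates 1 and 2, and 122 and 89.2 CPM in knockout replicates 1 and 2. Every knockout value was far below every wild-type value, and the knockout libraries still held a substantial level. On the log2 scale it fell by 1.46 (SE 0.111; edgeR, adjusted p = 0.000133). Without knockout replicate 1 it was -1.70 and without knockout replicate 2 it was -1.25. The gene passed the threshold in 13 of 13 alternative analyses. In wild-type midbrain its mean was 130 CPM, which lies near the knockout forebrain values. The miRNA gene inside it, Mir9-2 at chr13:83738814-83738885, measured 2.24 and 1.78 CPM in the wild-type pair and 0.794 and 0.982 CPM in knockout libraries. Knockout values were lower without overlap, with a log2 fold change of -1.18 (SE 0.485) and an adjusted p of 0.984. Gm51268, annotated on the same bases, measured 1.29 and 1.08 CPM in the wild-type pair and 0.284 and 0.589 CPM in knockout libraries. How reads of overlapping genes were assigned is not given in the sources used here, so these 3 genes cannot be separated with certainty, and counts of poly(A) RNA do not measure mature miR-9. The host RNA of another miR-9 gene, Mir9-3hg, measured 139 and 140 CPM in the wild-type pair and 145 and 143 CPM in knockout libraries, a log2 fold change of 0.04 (SE 0.0651).

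Around C130071C03Rik, 7 other genes within 1 Mb were tested and 0 passed the adjusted threshold. The count at an unadjusted p under 0.05 was 3, all lower, against 1.80% of all genes lower and 2.98% higher at that level. Those 3 are Mir9-2, Gm51268 and Gm17750. Gm17750, a non-coding RNA, measured 5.16 and 3.02 CPM in the wild-type pair and 2.50 and 1.64 CPM in knockout libraries. Mef2c, a transcription factor of neurons and muscle, measured 20.1 and 23.4 CPM in the wild-type pair and 14.4 and 20.6 CPM in knockout libraries. Its low value was in knockout replicate 1, and the genotypes overlapped. Tmem161b measured 21.1 and 21.4 CPM in the wild-type pair and 17.5 and 18.1 CPM in knockout libraries, a log2 fold change of -0.25 (SE 0.118) that did not pass. Where the deleted sequence lies was not analysed here.

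Lhx1 measured 8.89 and 8.51 CPM in wild-type replicates 1 and 2, and 18.5 and 15.7 CPM in knockout replicates 1 and 2. The genotypes did not overlap, and the higher value was in knockout replicate 1. On the log2 scale it rose by 0.98 (SE 0.117; edgeR, adjusted p = 0.0120). The direction held in 13 of 13 alternatives and the threshold in 8 of them. It was not passed in limma-voom, with the 4 forebrain libraries alone in edgeR or DESeq2, without wild-type replicate 1 or without wild-type replicate 2. Lhx1 was the 1 member called among 21 tested LIM-homeodomain genes and their cofactors, where 3 were lower and 1 higher at an unadjusted p under 0.05, against 1.80% and 2.98% of all genes. This balance turned when a knockout library was left out: 3 were higher and 1 lower without knockout replicate 1 (2.92% and 2.54% of all genes), and 7 higher and 2 lower without knockout replicate 2 (6.09% and 5.09%). Of the 22 tested genes within 1 Mb of Lhx1, 14 were lower and 8 higher, against 7290 lower and 8084 higher of 15383 genes tested. The median log2 fold change of the 22 was -0.04. Lhx1os was the 1 at an unadjusted p under 0.05. It measured 1.15 and 1.63 CPM in the wild-type pair and 2.16 and 2.16 CPM in knockout libraries. Whether counting used the read strand is not given in the sources used here, so its reads cannot be told apart from those of a partner on the other strand.

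Below the threshold, the 10 genes with the smallest p among those higher without overlap were Lhx1, Pou3f2, Chl1, Cdk5r2, Foxb1, Pou2f2, Apcdd1, Nkx2-2, Slc6a15 and Ptch1. Apart from Lhx1 their adjusted p lay between 0.141 and 0.247, so the values describe these libraries. Pou3f2, a POU-domain factor of neural progenitors and neurons, measured 70.8 and 71.6 CPM in the wild-type pair and 109 and 92.5 CPM in knockout libraries. Chl1, a neural cell adhesion protein, measured 15.0 and 12.6 CPM against 27.9 and 21.7 CPM. Both had the higher value in knockout replicate 1. Foxb1, a forkhead factor of the mammillary hypothalamus and thalamus, measured 1.56 and 1.93 CPM in the wild-type pair and 3.80 and 6.02 CPM in knockout libraries. Apcdd1, an inhibitor of Wnt signalling, measured 71.8 and 83.4 CPM against 102 and 129 CPM. These 2 genes were highest in knockout replicate 2. Cdk5r2, an activator of the neuronal kinase Cdk5, measured 6.31 and 6.81 CPM against 10.8 and 10.9 CPM. Pou2f2 measured 5.97 and 6.66 CPM against 10.9 and 10.2 CPM. Slc6a15, an amino acid transporter of neurons, measured 17.1 and 17.4 CPM against 24.9 and 30.9 CPM. Slc6a15 was highest in knockout replicate 2, and the knockout libraries were close to each other in Cdk5r2 and Pou2f2. Ptch1, the hedgehog receptor, measured 71.6 and 73.4 CPM against 101 and 87.9 CPM. Of the 10, 9 had a higher mean in wild-type midbrain than in wild-type forebrain. Among them were Lhx1 at 75.9 CPM and Pou3f2 at 302 CPM in midbrain, and Slc6a15 was the exception at 15.9 CPM. The share of all genes with a higher mean in midbrain was not counted here. The 9 therefore describe only these genes, which were chosen by their p. Without knockout replicate 1 the calls numbered 9 of 15727 genes (0.0572%), which were C130071C03Rik, Lhx1, Apcdd1, Foxb1, Tcf7l2, Trpm3, Fzd10, Foxa1 and Slc6a15, and with knockout replicate 2 as the lone knockout library its spread is assumed to match the other groups.

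**Figure D1:**
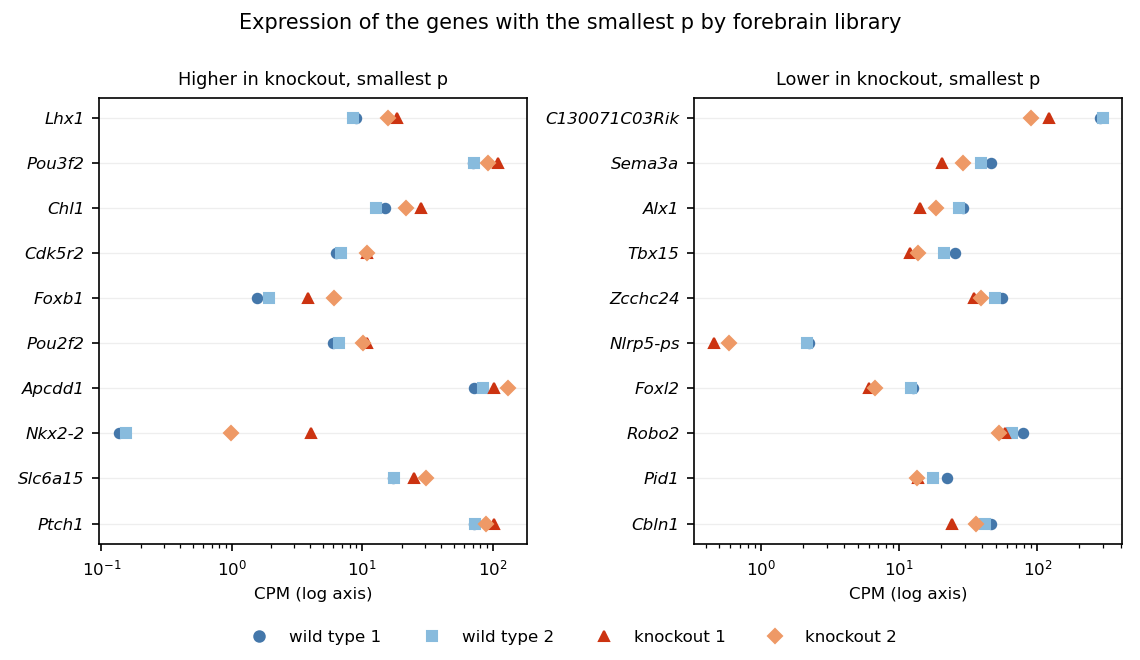
Level of each gene in the 4 forebrain libraries, in CPM on a log axis, for the 10 genes higher and the 10 genes lower in the knockout with the smallest p among genes whose genotypes do not overlap. Each row is a gene and each point a library; only Lhx1 and C130071C03Rik passed an adjusted p of 0.05, and Nkx2-2 is at 0.136 and 0.155 CPM in the wild-type pair and 4.03 and 0.982 CPM in knockout libraries.

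The 10 genes with the smallest p among those lower without overlap were C130071C03Rik, Sema3a, Alx1, Tbx15, Zcchc24, Nlrp5-ps, Foxl2, Robo2, Pid1 and Cbln1. Apart from C130071C03Rik their adjusted p lay between 0.259 and 0.725. Sema3a, a repulsive axon guidance ligand, measured 46.4 and 39.3 CPM in the wild-type pair and 20.5 and 28.7 CPM in knockout libraries. Robo2, a receptor for Slit guidance proteins, measured 78.8 and 65.7 CPM against 58.4 and 52.5 CPM. Alx1, a homeodomain factor of the facial mesenchyme, measured 29.1 and 27.0 CPM against 14.2 and 18.3 CPM. Sema3a and Alx1 were lowest in knockout replicate 1, and Robo2 in knockout replicate 2. Tbx15, a T-box factor of craniofacial and limb mesenchyme, measured 25.5 and 20.9 CPM against 12.0 and 13.6 CPM. Foxl2, a forkhead factor known from the periocular mesenchyme and ovary, measured 12.6 and 12.1 CPM against 6.01 and 6.68 CPM. In Tbx15 and Foxl2 both knockout libraries lay close together below the wild-type libraries. Without knockout replicate 1 the log2 fold change of Alx1 went from -0.79 to -0.61, that of Tbx15 from -0.87 to -0.78 and that of Foxl2 from -0.96 to -0.89.

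Knockout replicate 1 differed from the other 3 libraries mostly by genes that were low in it. A gene was counted as standing apart when a library lay at least 1.5-fold above or below every one of the other 3, among 14089 tested genes with a forebrain mean of at least 1 CPM, on log2 CPM with a prior count of 2. These counts are a description with no test, since 1 library has no replicate. Knockout replicate 1 lay below the others in 273 genes (1.94%) and above them in 48 genes (0.341%). Wild-type replicate 1 lay below in 88 genes (0.625%) and above in 58 (0.412%). Wild-type replicate 2 lay below in 90 genes (0.639%) and above in 45 (0.319%). Knockout replicate 2 lay below in 71 genes (0.504%) and above in 61 (0.433%). The excess was therefore in 1 library and in 1 direction. Of the 273 low genes, 98 were at least 2-fold below the nearest other library and 28 at least 4-fold. The gene just inside the 1.5-fold limit was Nipal4 at 1.501-fold and the gene just outside it was Pdlim2 at 1.49988-fold. In bulk tissue, fewer cells of a type and less RNA per cell cannot be told apart, which holds for every gene group below.

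**Figure D2:**
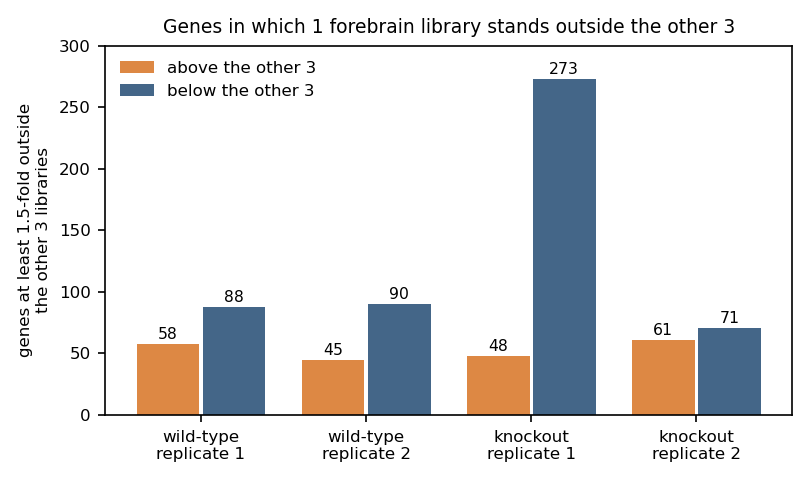
Number of genes in which 1 forebrain library lies at least 1.5-fold above (orange) or below (blue) all of the other 3, among 14089 genes; each pair of bars is a library. Knockout replicate 1 has 273 genes below the others, and the other libraries have 71 to 90.

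Surface ectoderm genes made up the steepest part of this difference. This tissue is the outer epithelium of the embryo that forms epidermis. As for all lists here, its list was chosen with earlier results of these data known, so its counts are description only. Of its 16 genes, 13 stood apart low in knockout replicate 1, and 15 of 16 had their lowest value there. Over all genes tested, 3928 of 15383 had their lowest value in that library. The median of the list in knockout replicate 1 minus the mean of the other 3 was -2.36 on the log2 scale, beside 0.02 over all genes tested. Trp63, the master transcription factor of stratified epithelia, measured 6.85 and 3.48 CPM in wild-type replicates 1 and 2 and 6.35 CPM in knockout replicate 2, and had 0 counts in knockout replicate 1. The mean of the other 3 was at least 32.7-fold higher than the 3 counts that a count of 0 allows in that library. Knockout replicate 2 lay within the wild-type range, and knockout replicate 1 lay below it.

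The other ectoderm genes had the same shape. Cdh1, the epithelial cadherin, measured 12.0 and 8.98 CPM in the wild type, 1.19 CPM in knockout replicate 1 and 12.9 CPM in knockout replicate 2. Its mean over the other 3 libraries was 9.48-fold that in knockout replicate 1, with an exact 95% interval from counting error alone of 6.20 to 15.6. Wnt6, a Wnt ligand of the ectoderm, measured 9.84 and 11.9 CPM in the wild type, 1.02 CPM in knockout replicate 1 and 10.0 CPM in knockout replicate 2. Krt8, a keratin of simple epithelia, measured 17.8 and 10.7 CPM, then 3.12 and 18.2 CPM in the same order. Epcam, an epithelial adhesion protein, measured 7.53 and 11.2 CPM, then 4.48 and 10.7 CPM. Each of these was low in knockout replicate 1 and within the range of the wild type, or just above it, in knockout replicate 2. Tfap2c was the exception, at 87.4 and 80.0 CPM in the wild-type pair and 91.9 and 83.0 CPM in knockout libraries, and it also made up most of the list's summed level in knockout replicate 1, 111 CPM. The summed level was 196 and 156 CPM in the wild-type pair and 186 CPM in knockout replicate 2, and 22.5 to 26.2 CPM in the 4 midbrain libraries.

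By the rule for the genes most below in knockout replicate 1 with a forebrain mean of at least 5 CPM, the 12 named were Gabrp, Sfn, Krt7, Gjb2, Wnt6, Perp, Cdh1, Dsp, Krt8, Wnt4, Dnm3os and Lmx1b. Gabrp, a GABA-A receptor subunit found in epithelia, measured 29.4 and 18.0 CPM in the wild type, 0.681 CPM in knockout replicate 1 and 26.7 CPM in knockout replicate 2. Its mean over the other 3 was 36.3-fold that in knockout replicate 1 (counting interval 20.9 to 71.3). Sfn, the epithelial 14-3-3 protein, measured 10.3 and 6.50 CPM, then 0.170 and 7.33 CPM. Dsp, the plaque protein of desmosomes, measured 21.9 and 14.5 CPM, then 2.89 and 19.3 CPM. Perp, another desmosomal protein, measured 12.2 and 5.73 CPM, then 0.851 and 9.43 CPM. Gjb2, a gap junction protein, measured 9.16 and 2.79 CPM, then 0.340 and 9.50 CPM. Dsp, Perp and Gjb2 are junction genes of epithelia. All 12 have their lowest value in knockout replicate 1 by the rule that picked them. Lmx1b, a LIM-homeodomain factor of the dorsal midbrain boundary and of head mesenchyme, measured 24.9 and 19.3 CPM, then 5.73 and 18.0 CPM. Dnm3os, a host RNA of mesenchymal microRNAs, measured 30.2 and 16.6 CPM, then 6.58 and 30.7 CPM.

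Gene families that were gathered after these values were seen, among members with a forebrain mean of at least 1 CPM, describe the rest. Standing apart low in knockout replicate 1 were 5 of 8 keratins, 6 of 10 desmosomal and cornified envelope genes, 3 of 11 claudins and 2 of 7 connexins. So were 2 of 10 laminins, 3 of 3 grainyhead and p63 genes, and both epithelial splicing factors, Esrp1 and Esrp2. Over all 14089 genes with that mean, 273 (1.94%) stood apart low there. Krt5, the basal keratin partner of Krt14, measured 5.09 and 2.63 CPM in the wild type, 0.113 CPM in knockout replicate 1 and 3.47 CPM in knockout replicate 2. Cldn4, a tight junction protein, measured 6.31 and 5.96 CPM, then 0.170 and 6.88 CPM. Of 35 collagens, 5 stood apart low, and Col17a1, the collagen of hemidesmosomes, measured 3.39 and 3.41 CPM, then 0.397 and 3.67 CPM.

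Cranial mesenchyme genes were also low in knockout replicate 1, by smaller factors. Of 25 tested, 10 stood apart low and 21 had their lowest value there, with a median of -0.71 against the other 3 libraries. Over all genes tested, 25.5% had their lowest value there. Twist1, a bHLH factor of mesenchyme and neural crest, measured 93.3 and 64.9 CPM in the wild type, 36.7 CPM in knockout replicate 1 and 61.0 CPM in knockout replicate 2. Pdgfra, a growth factor receptor of mesenchyme, measured 124 and 114 CPM, then 70.0 and 110 CPM. Prrx1 measured 126 and 114 CPM, then 72.1 and 114 CPM, and Col1a2, a fibrillar collagen chain, measured 522 and 381 CPM, then 271 and 446 CPM. In all 4 genes, knockout replicate 2 was within or just under the wild-type range. All 26 extracellular matrix genes had their lowest value in knockout replicate 1, and 3 of them stood apart by the 1.5-fold rule. In the comparison of genotypes, 7 of 25 mesenchyme genes and 1 of 26 matrix genes were lower at an unadjusted p under 0.05 (1.80% of all genes), and 0 passed the adjusted threshold. Without knockout replicate 1 these counts were 3 of 25 and 0 of 26, where 2.54% of all genes were lower at that level. The median difference between knockout and wild type of the mesenchyme list was -0.39 with both knockout libraries and -0.08 without knockout replicate 1.

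The surface ectoderm list also depended on that library, and more fully. Both knockout libraries lay below both wild-type libraries in 1 of its 16 genes. They did so in 11 of 25 mesenchyme genes, against 13.9% of all genes tested. The median difference of the ectoderm list between knockout and wild type was -1.06, and 0.08 without knockout replicate 1. At an unadjusted p under 0.05, 1 of the 16 ectoderm genes was lower (Cldn7), and 0 were without knockout replicate 1. With knockout replicate 1 as the lone knockout library, 209 of 15702 genes (1.33%) passed the threshold on the adjusted p in edgeR, 139 lower and 70 higher, on the assumption that its spread matches the other groups. Among these, 9 of 16 surface ectoderm, 10 of 25 mesenchyme and 7 of 26 matrix genes were lower.

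**Figure D3:**
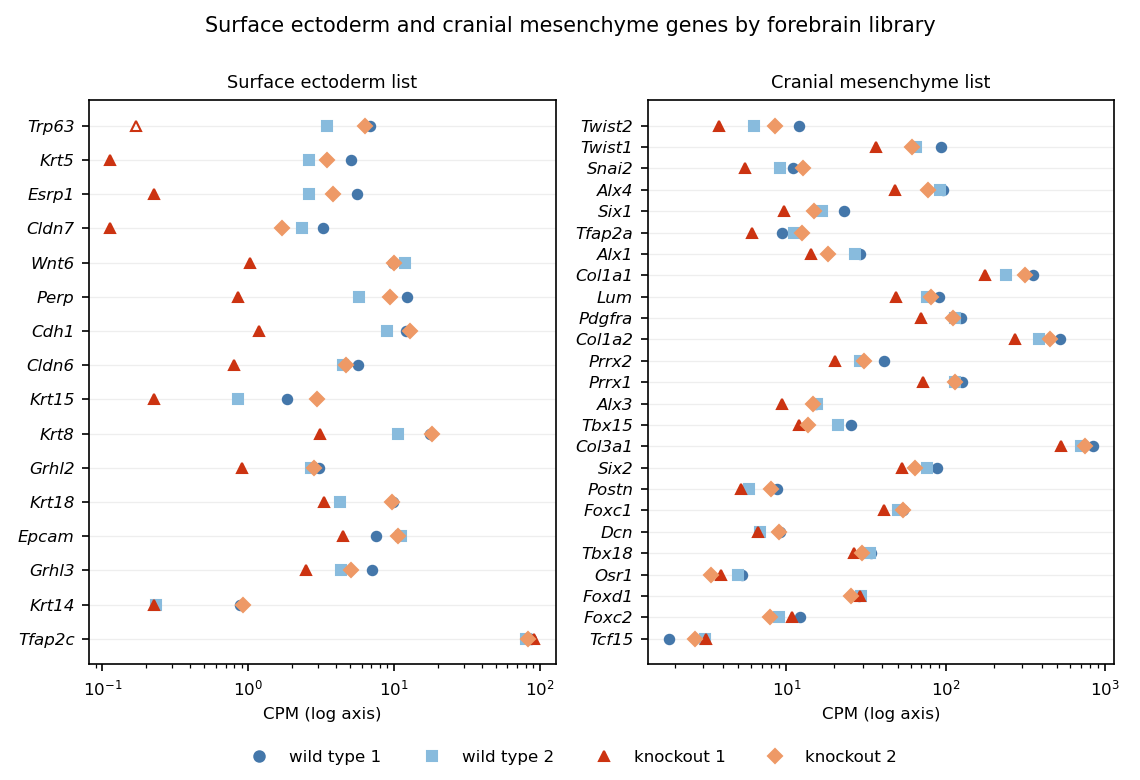
Level of the tested members of the surface ectoderm list (left, 16 genes) and the cranial mesenchyme list (right, 25 genes) in the 4 forebrain libraries, in CPM on a log axis. Rows are ordered by the distance of knockout replicate 1 (red triangles) from the mean of the other 3; the open triangle for Trp63 marks 0 counts, drawn at 3 counts, and Tfap2c at the bottom left is not low in that library.

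Other non-neural cells differed less in knockout replicate 1. The medians of knockout replicate 1 against the other 3 libraries were 0.00 for 16 endothelial genes, 0.04 for 10 mural genes, -0.19 for 15 macrophage genes and -0.20 for 14 erythroid genes. Of these 55 genes, 1 mural gene stood apart low. The lowest value was in knockout replicate 1 for 8 of 14 erythroid and 7 of 15 macrophage genes, against 3928 of 15383 genes tested. Summed levels were also lowest there, at 5000.1 CPM for erythroid genes against 5250.5 to 5808 CPM, and at 62.0 CPM for macrophage genes against 66.0 to 84.1 CPM. Summed endothelial levels were 478 to 497 CPM in the 4 forebrain libraries. Among general programmes, medians were 0.04 for S phase, 0.01 for G2 and M phase and 0.03 for heat shock genes. The median was 0.10 for cytosolic ribosomal protein genes, and 20 of 30 were highest in knockout replicate 1, against 4767 of 15383 genes tested. With that library as the lone knockout library, 11 of the 30 were higher and 1 lower at an unadjusted p under 0.05, where 6.09% of all genes were higher and 5.09% lower, and 1 passed the adjusted threshold.

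Neuronal genes lay in the opposite direction. Of 18 genes shared by most neurons, 16 were highest in knockout replicate 1 and 12 were lowest in knockout replicate 2. Over all 15383 genes tested, these numbers were 4767 and 3849. Tubb3, a neuronal tubulin, measured 623 and 531 CPM in the wild type, 702 CPM in knockout replicate 1 and 487 CPM in knockout replicate 2. Dcx, a microtubule protein of migrating neurons, measured 315 and 256 CPM, then 351 and 238 CPM. The 2 knockout libraries were at opposite ends, with the wild type between them. The list's median was 0.02 for the knockout against the wild type, 0.29 for knockout replicate 1 alone and -0.25 for knockout replicate 2 alone. None stood apart by the 1.5-fold rule (0 of 18). With both knockout libraries 3 were higher and 1 lower at an unadjusted p under 0.05, against 2.98% and 1.80% of all genes. The counts were 0 higher and 9 lower without knockout replicate 1, against 2.92% and 2.54%. Subpallial genes followed the same order: Dlx1, a factor of GABAergic precursors, measured 81.4 and 66.9 CPM in the wild type, 96.5 CPM in knockout replicate 1 and 59.5 CPM in knockout replicate 2.

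**Figure D4:**
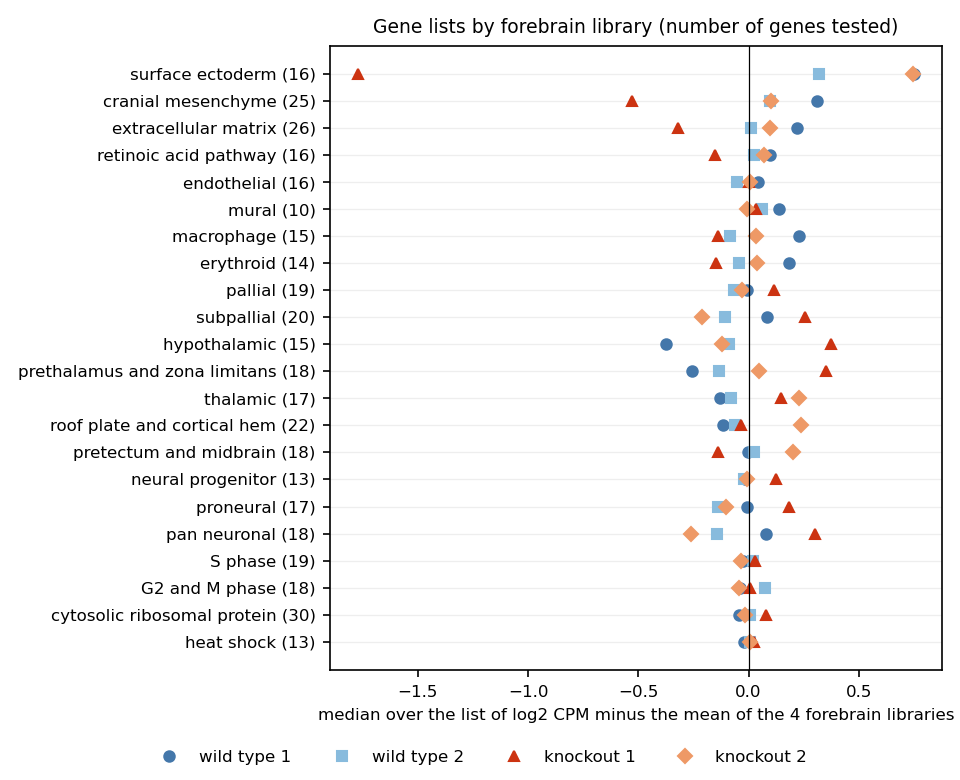
Median over each gene list of log2 CPM minus the mean of the 4 forebrain libraries, with 1 point per library and the number of tested genes in brackets. Knockout replicate 1 (red triangles) is at the far left in surface ectoderm, cranial mesenchyme and extracellular matrix and at the far right in the pan neuronal list; endothelial, cell cycle and heat shock lists lie near 0 in all libraries.

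Of the 48 genes that were high in knockout replicate 1, the 3 farthest above the other libraries were Nkx2-2, Otp and Sim1, transcription factors of the hypothalamus and diencephalon. Otp, a homeodomain factor of hypothalamic neurons, measured 0.747 and 1.24 CPM in the wild type, 9.42 CPM in knockout replicate 1 and 2.03 CPM in knockout replicate 2. Nkx2-2, a homeodomain factor of the ventral diencephalon induced by Sonic hedgehog, measured 0.136 and 0.155 CPM, then 4.03 and 0.982 CPM. Its wild-type values lie under the limit of 3 counts. Sim1, the factor of the paraventricular hypothalamus, measured 1.29 and 1.86 CPM, then 5.16 and 1.38 CPM. Otp and Nkx2-2 were higher than the wild type in both knockout libraries, Sim1 only in knockout replicate 1. Wild-type midbrain means were 8.26 CPM for Otp, 14.9 CPM for Nkx2-2 and 23.5 CPM for Sim1. By the rule for genes with a forebrain mean of at least 5 CPM, 6 stood apart high, which were Nhlrc1, Dtx1, Mt3, Nap1l5, Ngfr and Six3. Six3, a homeodomain factor of the rostral forebrain and eye field, measured 32.0 and 28.0 CPM in the wild type, 48.6 CPM in knockout replicate 1 and 31.8 CPM in knockout replicate 2. Ngfr, a neurotrophin receptor, measured 10.3 and 9.67 CPM, then 16.5 and 10.9 CPM.

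Among the lists of forebrain regions, Lhx1 was the only gene past the adjusted threshold with both knockout libraries. Foxb1 of the hypothalamic, Foxa1 of the prethalamic and Tcf7l2 of the thalamic list passed as well without knockout replicate 1, with adjusted p of 0.0174, 0.0344 and 0.0233 in edgeR. Of 15 tested hypothalamic genes, 10 had a forebrain mean of at least 1 CPM. Of the 15, 6 were higher and 0 lower at an unadjusted p under 0.05, where 2.98% of all genes were higher. The median difference of this list was 0.50 between the genotypes and -0.02 without knockout replicate 1, where 3 of 16 genes were higher at that level, against 2.92% of all genes. Of 18 genes of the prethalamus and zona limitans, the boundary that secretes Sonic hedgehog, 7 were higher, including Lhx1, and 0 lower. Their median was 0.28, and 0.15 without knockout replicate 1, with 5 of 18 higher and 1 lower. Of 17 thalamic genes, 6 were higher and 0 lower, with a median of 0.22 that was 0.26 without knockout replicate 1, where 9 of 17 were higher and 1 lower. The lists overlap, since Nkx2-2, Sim1, Fezf1, Olig3, Barhl2 and Dbx1 stand in more than 1 of them. Summed hypothalamic levels were 101 to 139 CPM in the forebrain libraries and 406 to 429 CPM in the midbrain libraries. Summed thalamic levels were 945 to 1067 CPM and 1258 to 1420 CPM. The prethalamic list was higher in forebrain, at 626 to 796 CPM against 517 to 586 CPM. Olig3, a bHLH factor of thalamic progenitors, measured 4.07 and 7.74 CPM in the wild-type pair and 12.8 and 13.1 CPM in knockout libraries. Barhl2, a homeodomain factor of the diencephalon, measured 13.4 and 15.4 CPM against 22.9 and 21.2 CPM. Tcf7l2, a Wnt pathway factor of thalamus and pretectum, measured 35.6 and 42.6 CPM against 43.4 and 63.1 CPM. In Olig3 and Barhl2 the knockout libraries were close to each other, and in Tcf7l2 knockout replicate 2 was highest.

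Dorsal midline genes were highest in knockout replicate 2. Of 22 roof plate and cortical hem genes, the dorsal sources of Wnt and BMP signals, 18 had their highest value in that library, against 3639 of 15383 genes tested. At an unadjusted p under 0.05, 10 were higher and 1 lower in the knockout, against 2.98% and 1.80% of all genes. Without knockout replicate 1 the counts were 12 and 0 (2.92% and 2.54% of all genes), and without knockout replicate 2 they were 7 and 4 (6.09% and 5.09%). The median difference was 0.21, and 0.34 without knockout replicate 1. Zic4, a zinc-finger factor of the dorsal midline, measured 48.1 and 62.3 CPM in the wild-type pair and 76.3 and 85.9 CPM in knockout libraries, with an adjusted p of 0.259. Rspo3, an activator of Wnt signalling, measured 58.2 and 60.5 CPM against 71.7 and 81.6 CPM. All 5 Zic genes were higher in both knockout libraries than in both wild-type libraries, as were 17.2% of all genes tested. Msx1 and Msx2, homeodomain factors of both roof plate and mesenchyme, went the other way in knockout replicate 1. Msx1 measured 128 and 106 CPM in the wild type, 58.5 CPM in knockout replicate 1 and 111 CPM in knockout replicate 2.

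**Figure D5:**
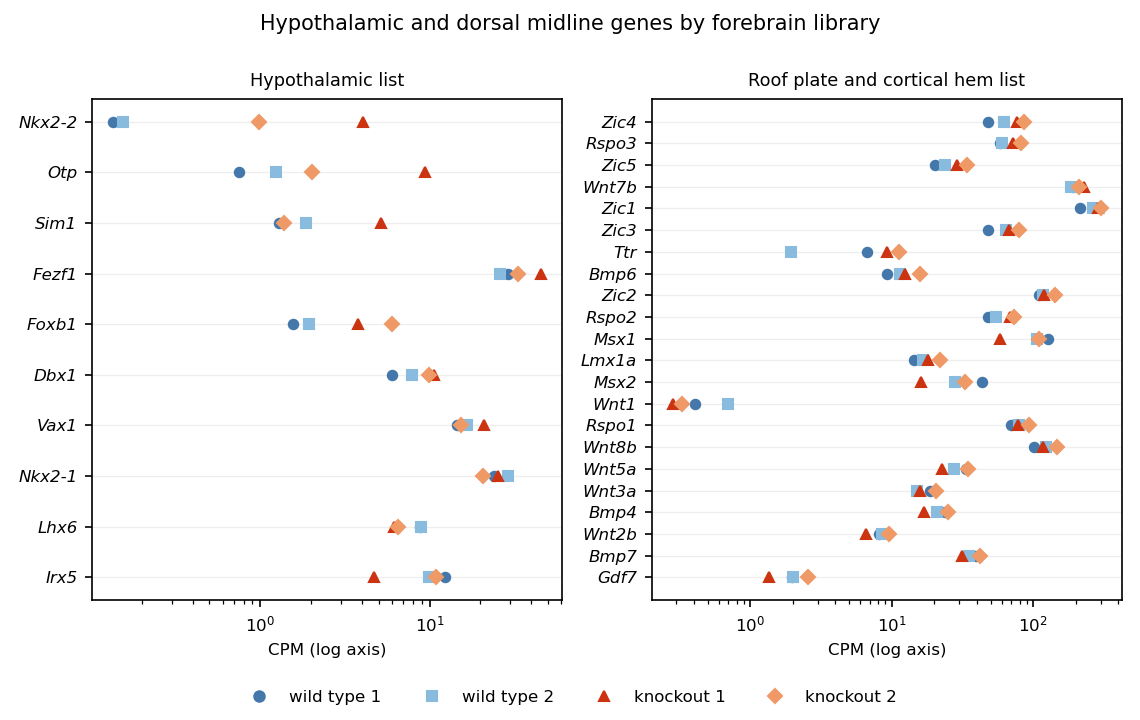
Level of the 10 hypothalamic genes with a forebrain mean of at least 1 CPM (left) and the 22 tested roof plate and cortical hem genes (right) in the 4 forebrain libraries, in CPM on a log axis. Otp, Nkx2-2 and Sim1 are highest in knockout replicate 1 (red triangles), and most dorsal midline genes are highest in knockout replicate 2 (orange diamonds).

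Lists of hedgehog pathway genes, reported miR-9 targets and pallial genes were counted in the same way. Of 16 hedgehog pathway genes, 6 were higher and 1 lower at an unadjusted p under 0.05, against 2.98% and 1.80% of all genes. Their median difference was 0.10, which became 0.19 without knockout replicate 1 and 0.01 without knockout replicate 2. Gli1, a transcriptional effector and target of the pathway, measured 19.2 and 17.8 CPM in the wild-type pair and 22.0 and 23.2 CPM in knockout libraries. Shh itself measured 3.19 and 5.03 CPM in the wild-type pair and 5.11 and 4.65 CPM in knockout libraries, which overlap. Of 23 genes reported in the literature as miR-9 targets, 3 were higher and 0 lower at that level, against 2.98% and 1.80% of all genes, with a median difference of 0.05. The median turned to -0.04 without knockout replicate 1 and was 0.14 without knockout replicate 2. The 3 with both knockout libraries were Onecut1, Onecut2 and Zic5. Onecut2, a cut-homeodomain factor of neurons, measured 5.77 and 12.6 CPM in the wild-type pair and 15.9 and 13.9 CPM in knockout libraries. Pax6, which is in the same list, differed by 0.15 on the log2 scale. Pallial genes were level, with a median of 0.05 over 19 genes, and Eomes, the factor of intermediate progenitors, measured 121 and 113 CPM in the wild-type pair and 130 and 115 CPM in knockout libraries. Of the 19 pallial genes, 1 was higher and 1 lower at an unadjusted p under 0.05, against 2.98% and 1.80% of all genes. The lower gene was Neurod6, a bHLH factor of pallial neurons. It measured 8.21 and 3.48 CPM in the wild-type pair and 2.89 and 1.83 CPM in knockout libraries.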

How the data were processed

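Poly(A) RNA-seq of 4 forebrain pools was analysed, with 4 midbrain libraries in the model. The authors deposited raw counts per gene symbol, and the submitters' processing notes name STAR, HTSeq, DESeq2 and build mm10, with no version, role or order. The annotation and the strand setting are not given in the sources used here. Rows that name no gene were dropped (5 per table), and 43.3% to 44.1% of the counts listed as in genes, in no feature or ambiguous lay in genes. Genes were filtered with filterByExpr, scaled by TMM and tested with edgeR 4.0.16 in R 4.3.3, as 1 mean per group over 8 libraries (4 residual degrees of freedom, biological coefficient of variation 7.62%). Two-sided p-values were adjusted by Benjamini-Hochberg over 15383 genes. The tests were checked on simulated data. Replicate numbers did not pair the libraries. Counts of every pair of forebrain libraries differed beyond sampling noise (chi-square at least 3.51 times its degrees of freedom).

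Named genes were all called genes, the 10 smallest p in each direction, up to 12 genes most above or below in knockout replicate 1, members of 47 gene lists, and neighbours within 1 Mb. The members and lists were chosen with earlier results of these data known. Positions and sequences are RefSeq's for GRCm38.p6, matched by symbol. RLE and upper-quartile scaling, other filters, DESeq2 1.42.0, limma-voom (limma 3.58.1), the forebrain libraries alone, a replicate block and each library left out were the alternatives.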

Additional observations from a re-analysis of the deposited data

How the results depend on the processing

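With 2 pools per genotype, the number of genes past an adjusted p of 0.05 depended on the analysis. It was 2 with RLE or upper-quartile scaling or a mean of at least 50 counts, 161 with no filter on low counts, 13 in DESeq2, 1 in limma-voom, and 1 with the 4 forebrain libraries alone in edgeR or in DESeq2 (the latter chosen after seeing the data). Leaving out 1 library gave 3 to 209 genes, and the 3 without wild-type replicate 1 and the 3 without wild-type replicate 2 share C130071C03Rik and Mid1. Mid1 passed at -1.15 in the first case and at 0.78 in the second. With the replicate block the number was 6 (5 higher, 1 lower), but same-numbered forebrain libraries did not deviate together (r = -0.0188 over 15383 genes). C130071C03Rik kept its direction and call throughout, with log2 fold changes of -1.70 to -1.25, and Lhx1 had 0.85 to 1.09 with adjusted p up to 1.00. The cause of these differences was not tested. The number of genes in which knockout replicate 1 stood apart was 321; it was 323 to 338 with other scalings, thinned counts or a prior count of 0.5, 83 at a forebrain mean of at least 10 CPM, 102 at 2-fold and 470 against the wild-type libraries alone. Levels under 0.170 to 0.232 CPM, 3 counts, could not be told from 0 at these depths.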

Other observations

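Genes outside the lists also stood apart in knockout replicate 1. Of the 273 low genes, 251 are protein coding and 230 belong to no list used here. Slit3, Tnc, Igf1, Sema3c and Runx1 are among the latter, chosen here after their values were seen. Dct and Pmel, pigment cell genes, were the 2 of 17 eye and optic genes that stood apart low, while 10 of the 17 were highest in that library and the list's median was 0.21. Dct, a melanin synthesis enzyme, measured 8.42 and 8.20 CPM in the wild type, 4.20 CPM in knockout replicate 1 and 7.33 CPM in knockout replicate 2. Of 5 Irx genes with a forebrain mean of at least 1 CPM, 3 stood apart low, against 1.94% of all genes with that mean. Irx5 measured 12.4 and 9.98 CPM, then 4.71 and 10.9 CPM. Of 16 retinoic acid pathway genes, 12 had their lowest value in knockout replicate 1, against 25.5% of all genes tested. Rarg, a retinoic acid receptor, measured 15.5 CPM there against 38.5 and 35.0 CPM in the wild type.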
